A study of Mus musculus with 4 samples.

Results

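The 10 genes described here encode adhesion, tight junction and keratin proteins of the colonic epithelium: Epcam, Cdh1, Cdh17, Cldn3, Cldn4, Cldn7, Krt8, Krt18, Krt19 and Krt20. They were taken by symbol from a table of normalized counts (read counts per gene divided by 1 size factor per library), in which all 10 were found among 16555 genes. RNA came from CD45+CD3+CD4+ T cells sorted from the colons of Rag1-/- mice 6 weeks after these hosts, which have no T or B cells of their own, received CD4+CD25-CD45RBhi T cells, a model of colitis. Donors carried floxed CK2α alleles (CK2α fl/fl, 2 libraries) or the same alleles with the dLck-Cre transgene (CK2α fl/fl dLck-Cre, 2 libraries). In this transgene the distal Lck promoter drives Cre, which is active in mature T cells, and CK2α is a catalytic subunit of the kinase CK2, encoded by Csnk2a1. Cre therefore acts in the transferred T cells, and the epithelium belongs to the Rag1-/- host in both groups. Whether a replicate is 1 mouse, a pool or a repeat of the same mice is not in the labels, so a p-value here reflects no more than how far these samples spread, possibly for technical reasons.

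Epithelial cells are held together by belts of adhesion proteins. Claudins seal the space between neighbouring cells in the tight junction, E-cadherin joins cells in the adherens junction below it, and EpCAM is an adhesion protein that binds claudin-7 and stabilizes it. Inside the cell, keratins form filaments from pairs of a type II keratin (KRT8 in the gut) and a type I keratin (KRT18, KRT19 or KRT20), which are anchored at desmosomes. Epithelial cells lack CD45 and CD3, so the sort gate does not select them.

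The libraries held between 16777017 and 22422971 reads on listed genes, and the 10 genes rested on 566 to 37871 reads each per library. Csnk2a1 was not lower in libraries labelled dLck-Cre: its normalized counts were 1534 and 1597 in the fl/fl samples and 2118 and 2031 in those labelled dLck-Cre (log2 difference 0.41 ± 0.13 SE; limma, adjusted p = 0.108). A count per gene cannot show a deleted exon, and directions are given as the labels have them. T cell genes were present, as the label of CD4+ T cells has it: 21 of 21 T cell identity genes were listed. Per kilobase of annotated exon, Cd4 lay above 98.7% and Cd3e above 86.2% of genes in the fl/fl libraries. In those labelled dLck-Cre they lay above 98.3% and 80.1%. The 10 epithelial genes were present as well. In the fl/fl libraries their mean level per kilobase lay above 79.0% (Cdh17) to 98.9% (Krt8) of 16033 genes. Krt8 alone, at 5372 normalized counts per kilobase, exceeded Cd4, at 4570, and Cdh17, at 259, lay below Cd3e, at 412. In fl/fl replicates 1 and 2 the 10 genes together took 0.139% and 0.148% of reads, against 0.851% and 0.837% for the 21 T cell identity genes.

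All 10 genes were higher in both libraries labelled dLck-Cre than in both fl/fl libraries, by 2.02-fold (Krt18) to 3.23-fold (Krt20) between group means. Such a separation was found for 27.7% of the 16490 genes with a mean of at least 10 normalized counts. In limma's test across those genes, on log2 of the normalized count plus 1 with Benjamini-Hochberg adjustment, 9 of the 10 rose and Cldn4 did not pass, where 5.75% of all genes passed as higher and 6.97% in either direction. The median log2 difference of the 10 genes was 1.32, against -0.02 over all genes tested. In bulk RNA, more cells of a type and more RNA per cell cannot be told apart. Without replicate 2 labelled dLck-Cre, limma called 17 of all 16490 genes in either direction and 0 of the 10 (adjusted p from 0.0518 to 0.286; 10 had an unadjusted p under 0.05). The count was 4 by edgeR, where 0.352% of all genes passed as higher, and 9 by DESeq2, where 1.76% did, and limma's median was 1.07. With 1 library left out, the lone library of its group is assumed to vary like the other group, from which the whole estimate of spread then comes. With all libraries in, limma without its intensity trend called 0 (9 with an unadjusted p under 0.05). By edgeR 9 of the 10 rose, where 5.83% of all genes passed as higher, 1.04% as lower and 6.87% in either direction, and by DESeq2 also 9, where the shares were 8.17%, 2.55% and 10.7%.

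**Figure D1:**
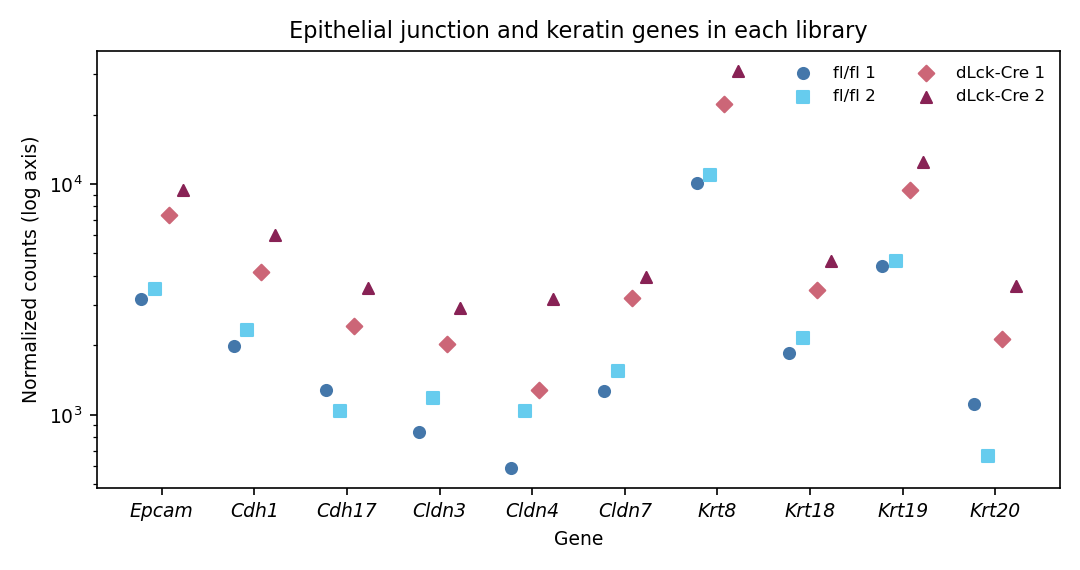
Normalized counts of the 10 genes (log axis) in each of the 4 libraries, 1 point per library. For every gene both libraries labelled dLck-Cre lie above both fl/fl libraries and replicate 2 of the former is the highest, while the spread within a group is widest for Cldn4 and Krt20.

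Epcam (chromosome 17, 87635979 to 87651129, plus strand, GRCm38) encodes the epithelial adhesion molecule EpCAM. It was listed at 3178 and 3495 normalized counts in fl/fl replicates 1 and 2 and at 7325 and 9441 in replicates 1 and 2 labelled dLck-Cre. The groups did not overlap, and the lower library labelled dLck-Cre exceeded the higher fl/fl library by more than replicates differed within either group. The log2 difference was 1.32 ± 0.16 (SE; limma, adjusted p = 0.0195). The stretch of 250 bases before its RefSeq start is shown because it holds the most motifs among the matched members.

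Epcam, chr17:87635729-87635978, plus strand, GRCm38.p6: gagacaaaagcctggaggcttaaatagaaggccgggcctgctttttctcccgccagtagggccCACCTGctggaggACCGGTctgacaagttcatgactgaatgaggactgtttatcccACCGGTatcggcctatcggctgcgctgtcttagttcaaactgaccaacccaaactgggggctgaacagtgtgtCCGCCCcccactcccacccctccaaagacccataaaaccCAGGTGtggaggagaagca

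Capitals mark matches to CAGGTG, which reads CACCTG on the other strand, the E-box bound by the repressors of epithelial genes ZEB and SNAI, to ACCGGT (the same on both strands), the core of the Grainyhead-like site, and to GGGCGG, which reads CCGCCC on the other strand, the GC box. The E-box matches lie 187 and 19 bases, the ACCGGT matches 174 and 131 bases and the GC box 58 bases before the start, and none overlaps another. Of 32817 promoter windows of the same length, 17.2% held the E-box, 1.86% ACCGGT and 32.7% the GC box. Sequences came from a set of promoter windows at RefSeq starts, which held 7 of the 10 genes, with 8 windows because Cldn7 has a pair. The set used here had no window for Cdh1, Krt19 or Cdh17. The E-box stood in 5 of the 8 windows, for Epcam, Cldn4, Cldn7, Krt8 and Krt18. A match is only a run of letters, and the motifs were picked with the windows in view.

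The cadherins span the junction between cells. Cdh1 (chromosome 8, 106603351 to 106670246, plus strand) encodes E-cadherin and was listed at 1979 and 2333 normalized counts in fl/fl replicates 1 and 2 and at 4140 and 6040 in those labelled dLck-Cre. Cdh17 (chromosome 4, 11758147 to 11817895, plus strand) encodes the intestinal LI-cadherin and was listed at 1275 and 1042 against 2430 and 3557. Replicate 2 labelled dLck-Cre was the highest library for both, and neither gene overlapped between groups. Cdh1 rose by 1.22 ± 0.20 (SE) on the log2 scale and Cdh17 by 1.35 ± 0.20 (limma, adjusted p = 0.0226 and 0.0201). The level of Cdh17 per kilobase was 0.659 and 0.456 of that of Cdh1 in fl/fl and 0.600 and 0.602 in those labelled dLck-Cre, so the ratio of the cadherins lay within the fl/fl range in both.

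Cldn3, Cldn4 and Cldn7 encode claudins, the sealing proteins of the tight junction. Cldn7 (chromosome 11, 69964779 to 69967885, plus strand), whose protein binds EpCAM, was listed at 1267 and 1554 normalized counts in fl/fl replicates 1 and 2 and at 3223 and 3968 in those labelled dLck-Cre. It rose by 1.35 ± 0.17 (SE, log2; limma, adjusted p = 0.0195). Its level per kilobase stayed between 0.449 and 0.501 of that of Epcam in all 4 libraries, a spread of 1.12-fold while both genes differed more than 2-fold between groups. A similar spread, 1.18-fold, was found for Cdh1 over Epcam, so a steady ratio to Epcam was not particular to Cldn7. The share of Cldn7 in the members' summed level per kilobase spread 1.17-fold. That spread was narrower for Epcam, Cdh1, Krt8 (1.03-fold) and Krt19 and wider for the other members. Any part of the protein binding in the ratio was not tested. Cldn3 (chromosome 5, 134986214 to 134987472, plus strand) was listed at 839 and 1182 against 2025 and 2903, with a log2 difference of 1.28 ± 0.23 (adjusted p = 0.0266). An antisense gene, Wbscr25, overlaps an exon of Cldn3, and since no source says that strand was used in counting, reads of the pair cannot be told apart.

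Cldn4 (chromosome 5, 134945119 to 134946934, minus strand), which lies 39.3 kilobases from Cldn3, was the member that did not pass. It was listed at 588 and 1040 normalized counts in fl/fl replicates 1 and 2 and at 1285 and 3169 in those labelled dLck-Cre. Replicate 2 was the higher library of each group, by 1.77-fold and 2.47-fold, and the groups were separated only by the gap from 1040 to 1285. The log2 difference of 1.37 ± 0.42 (SE) was about as large as those of Cldn3 and Cldn7, and its error was larger (limma, adjusted p = 0.0998; edgeR, 0.0815; DESeq2, 0.207). With the replicate number as a block it passed at the same difference (limma, adjusted p = 0.00648), but no label says that the numbers pair libraries. In fits in which 1 group is a lone library, the value moved with the library left out. Without fl/fl replicate 2 the difference was 1.78 (limma, adjusted p = 0.0166) and without replicate 1 labelled dLck-Cre it was 2.02 (adjusted p = 0.0114). Without fl/fl replicate 1 it was 0.96 and without replicate 2 labelled dLck-Cre 0.72, neither past the threshold (adjusted p = 0.172 and 0.286). The ratio of Cldn4 to Cldn7 per kilobase was 0.498 and 0.717 in fl/fl and 0.428 and 0.857 in those labelled dLck-Cre, so it spread more within a group than between groups. Its promoter window is shown because Cldn4 varied most within the groups beside Krt20, and because it was the single window among those of the members with the AP-1 site TGACTCA, which reads TGAGTCA on the other strand.

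Cldn4, chr5:134946935-134947184, minus strand, GRCm38.p6: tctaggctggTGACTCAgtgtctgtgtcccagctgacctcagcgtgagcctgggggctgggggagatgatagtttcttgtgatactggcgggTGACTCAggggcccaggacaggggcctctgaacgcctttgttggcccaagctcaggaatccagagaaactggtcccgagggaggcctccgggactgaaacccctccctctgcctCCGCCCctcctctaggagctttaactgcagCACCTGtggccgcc

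Capitals mark AP-1 sites 240 and 158 bases, a GC box 44 bases and an E-box 14 bases before the start, with no overlap. The AP-1 site stood in 4.46% of the 32817 promoter windows counted, which did not cover every chromosome.

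Per kilobase, Krt8 and Krt19 were the most abundant of the 10 genes in every library. Krt8 (chromosome 15, 101996698 to 102004482, minus strand), the type II keratin, was listed at 10144 and 10894 normalized counts in fl/fl replicates 1 and 2 and at 22189 and 31000 in those labelled dLck-Cre, a log2 rise of 1.32 ± 0.18 (SE; limma, adjusted p = 0.0195). Its partner Krt18 (chromosome 15, 102028180 to 102032027, plus strand), 23.7 kilobases away, was listed at 1860 and 2151 against 3464 and 4634. Krt18 rose by 1.00 ± 0.17 (adjusted p = 0.0260), the smallest difference of the 10 genes except without replicate 2 labelled dLck-Cre, where Cldn4 was lower, and its level per kilobase was 0.250 and 0.269 of that of Krt8 in fl/fl against 0.213 and 0.204 in those labelled dLck-Cre. That ratio did not overlap between the groups, and no test of it was made. Krt8 shares exonic bases with the long noncoding RNA Gm36026 and has 1 named pseudogene, so its counts are uncertain to the extent that reads were shared.

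Krt19 (chromosome 11, 100140810 to 100148665, minus strand), a type I keratin found along the whole crypt, was listed at 4417 and 4624 normalized counts against 9399 and 12444. It rose by 1.26 ± 0.16 (SE, log2; limma, adjusted p = 0.0195), and its fl/fl libraries were the closest of any member. Krt20 (chromosome 11, 99428403 to 99438150, minus strand), a type I keratin of differentiated cells at the top of the crypt, was listed at 1117 and 663 against 2137 and 3604. It rose by 1.69 ± 0.30 (adjusted p = 0.0271), the largest difference of the 10 with all libraries in. That rank rested on fl/fl replicate 2: without it the difference was 1.31, below those of Cldn4 (1.78), Cldn3 (1.53), Epcam (1.39), Krt8 (1.37), Cdh1 and Cldn7, and without fl/fl replicate 1 it was 2.06. The ratio of Krt20 to Krt19 per kilobase was 0.243 and 0.138 in fl/fl and 0.219 and 0.279 in those labelled dLck-Cre, so the groups overlapped. The level of Krt8 per kilobase over the summed level of Krt18, Krt19 and Krt20 was 1.22 and 1.28 in fl/fl and 1.32 and 1.34 in those labelled dLck-Cre. Other keratins were left out of this ratio. The Krt20 window is shown because Krt20 varied widely within the groups, like Cldn4, and because it is the single one among the members' windows with the TATA box TATAAA, which reads TTTATA on the other strand.

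Krt20, chr11:99438154-99438403, minus strand, GRCm38.p6: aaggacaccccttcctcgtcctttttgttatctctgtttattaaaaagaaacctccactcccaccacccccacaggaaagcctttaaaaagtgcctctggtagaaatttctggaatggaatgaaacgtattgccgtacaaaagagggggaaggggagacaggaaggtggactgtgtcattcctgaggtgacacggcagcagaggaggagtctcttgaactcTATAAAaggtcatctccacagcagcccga

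Capitals mark the TATA box 29 bases before the start, a motif held by 12.4% of the 32817 promoter windows counted. The window had no match to the E-box, ACCGGT, AP-1 or GC box letters.

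From library to library most of the 10 genes kept similar shares of the sum. The summed normalized counts of all 10 were 26665 and 28978 in fl/fl and 57617 and 80761 in those labelled dLck-Cre, or 0.139%, 0.148%, 0.329% and 0.440% of reads. Of the summed level per kilobase, Krt8 made up 38.3% to 39.5% in the 4 libraries, Krt19 16.7% to 18.0%, Epcam 10.7% to 11.6% and Krt18 8.03% to 10.3%. Cldn4 (2.45% to 4.35%) and Krt20 (2.37% to 4.66%) had the widest relative range, 1.78-fold and 1.97-fold between their lowest and highest library. For the other 8 genes the range was 1.03-fold to 1.34-fold. In order of mean level per kilobase in the fl/fl libraries, Krt8 and Krt19 each stood apart from the next gene. Epcam and Krt18 overlapped in range, as did Cldn3 and Cldn7, and Cdh1, Krt20 and Cldn4 could not be ordered beyond their spread. Cdh17 was the lowest.

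**Figure D2:**
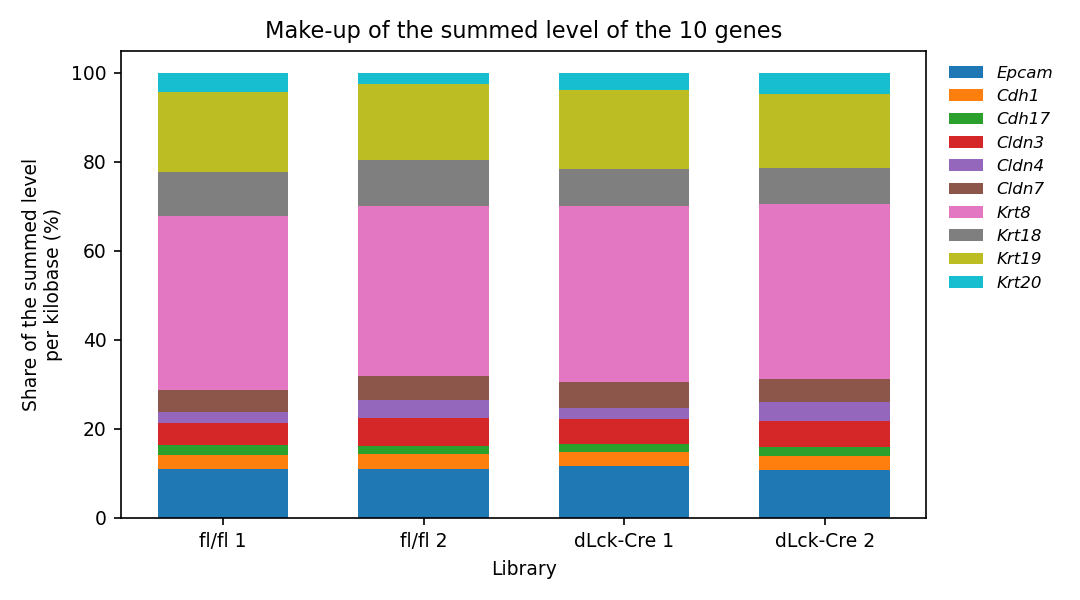
Share of the summed level per kilobase (percent) taken by each of the 10 genes in each library, with 1 bar per library. Krt8 takes 38.3% to 39.5% in every library, and the bars differ most in Cldn4 and Krt20.

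The members were then compared with other markers of the same tissue, which asks whether junction and keratin genes differed between groups by more or less than epithelial RNA in general. Values were rescaled in each library to the mean log2 value of 25 other epithelial markers, such as the goblet cell mucin gene Muc2, the actin bundler gene Vil1 (villin) and the antimicrobial lectin gene Reg3b, and limma was fitted to all genes again. Of the 10 genes 0 passed in this fit (0 at an unadjusted p under 0.05, and 0 by edgeR and by DESeq2), where 71.9% of all genes passed, 71.8% as lower and 0.121% as higher. The shares lower, higher and in either direction were 71.0%, 0.109% and 71.1% by edgeR and 68.8%, 0.0788% and 68.9% by DESeq2. The remaining differences ran from -0.37 (Krt18) to 0.32 (Krt20) on the log2 scale. Their 95% intervals reached 0.826 to 0.891 to each side, so smaller differences were not detectable. Some of the 25 markers varied widely between replicates, such as Aqp8, a water channel gene picked for that spread, at 15.6 and 1.11 normalized counts in fl/fl against 10.5 and 84.3. With the 11 markers of a mean of at least 1000 normalized counts, a choice made after the data were seen, differences ran from -0.19 to 0.49 and 0 passed. Krt20 was then the farthest from 0, at 0.49 on the log2 scale with an interval of -0.08 to 1.07 (adjusted p = 0.113). Of the 10 differences 9 were below 0 under the first scaling and Krt18 alone was below 0 under the second. Under the first scaling limma also called 0 of 18 markers of monocytes, macrophages and dendritic cells (median -0.22). Of 12 fibroblast, smooth muscle and endothelial markers 1 passed, Pecam1, as lower, while 21 of 21 T cell identity genes passed as lower. Not passing in this fit was therefore not particular to epithelial genes.

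**Figure D3:**
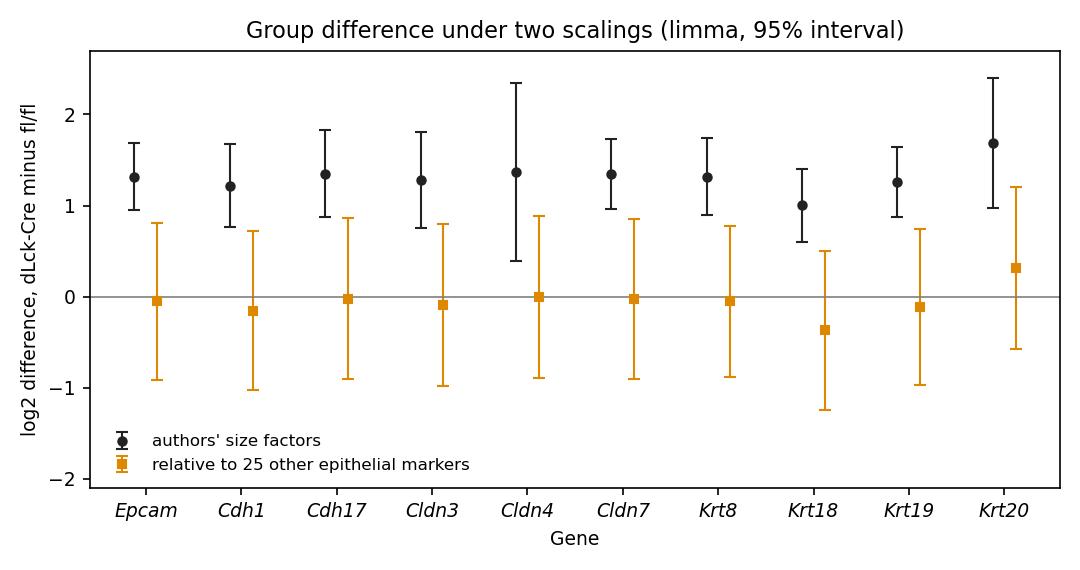
Log2 difference of each gene, libraries labelled dLck-Cre minus fl/fl libraries, with limma's 95% interval, on the authors' size factors (circles) and relative to 25 other epithelial markers (squares). On the authors' scale the differences run from 1.00 to 1.69, and relative to the other markers every interval spans 0.

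Other genes of the same structures were higher as well. Of 50 further junction, desmosome, keratin and EpCAM-related genes tested, 33 rose and 0 fell, at a median log2 difference of 1.05, where 5.75% of all genes passed as higher and the median of all genes was -0.02. The count was 12 after quantile normalization, and without replicate 2 labelled dLck-Cre it was 0 with limma (39 at an unadjusted p under 0.05), 2 with edgeR and 12 with DESeq2. Of 24 other tight junction genes tested 19 rose. They included Cldn2, which encodes a pore-forming claudin (288 and 367 against 762 and 705 normalized counts; log2 difference 1.17), Cldn23 (1.63), Tjp3, which encodes the scaffold ZO-3 (1.03), and Cldn15, another pore-forming claudin gene (1.09). F11r, which encodes the junctional adhesion molecule JAM-A, also rose (499.9 and 571 against 1044 and 1636; 1.29). For Cldn2 and Cldn15 replicate 1 labelled dLck-Cre was the highest library, unlike the 10 members. Ocln, which encodes occludin (1.11), and Tjp1, which encodes ZO-1 (1.15), also rose, and were named after their values were seen. Cldn8 (0.37) and Marveld2, which encodes tricellulin (0.42), did not pass and were likewise picked afterwards.

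Of 9 adherens junction partners 6 rose. Nectin2 (1.21), Afdn, which encodes the nectin partner afadin (1.16), Jup, which encodes plakoglobin (1.27), and Nectin3 (1.39) rose. Ctnna1, which encodes α-catenin, rose by 0.69, from 2451 and 2594 to 3605 and 4621 normalized counts. Ctnnb1, which encodes β-catenin, was listed at 6542 and 6940 against 7386 and 9212 and did not pass (0.29; adjusted p = 0.287). Of 7 desmosome genes 4 rose: the desmoplakin gene Dsp (1776 and 1964 against 3745 and 5389; 1.27), Dsc2 (1.40), Pkp2 (1.29) and Dsg2 (1.16). Pkp3, a plakophilin gene, was listed at 3252 and 3858 against 3459 and 3008 normalized counts, with overlapping groups (-0.13; adjusted p = 0.632). Ctnna1, Ctnnb1 and Pkp3 were singled out after their values were seen.

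Of 5 other keratin and keratin-associated genes 1 rose, Krt7, a type II keratin of simple epithelium (491 and 631 against 1180 and 1454 normalized counts; 1.23). Krt23, Krt80 and Krt222, the last named after its values were seen, were listed below 42 normalized counts in every library. Keratins of stratified epithelium such as that of skin or anus were scarce: 3 of the 11 in the list, Krt10, Krt13 and Krt15, were among the genes analysed, together 17.7 and 34.2 normalized counts in fl/fl replicates 1 and 2 and 38.7 and 81.9 in those labelled dLck-Cre. None of these 3 passed (limma; 0 at an unadjusted p under 0.05). Among EpCAM-related genes, St14, which encodes matriptase, a protease that cleaves EpCAM, rose by 0.98, and its inhibitor genes Spint1 and Spint2 rose by 1.20 and 1.02.

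**Figure D4:**
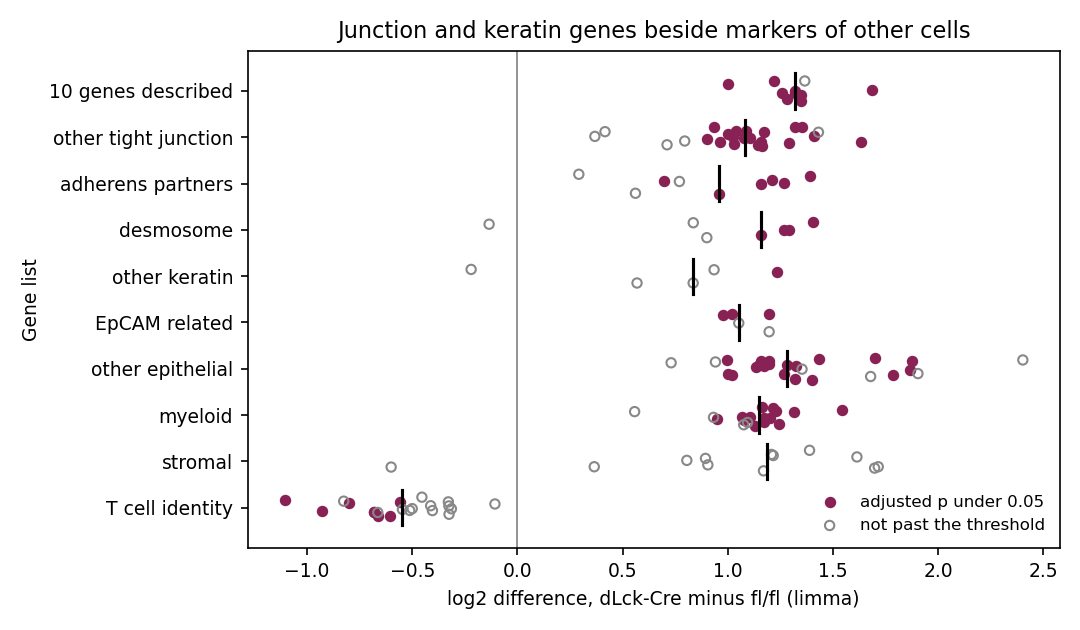
Log2 difference of single genes (points, limma; filled where the adjusted p is under 0.05) in the 10 genes, other junction lists and markers of other cells, with the median of each list as a bar. The 10 genes have a median of 1.32, other epithelial markers 1.28, myeloid markers 1.15 and T cell identity genes -0.55.

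Markers of other cells moved between the same libraries, and their part in the differences above was not tested. Of the 25 other epithelial markers 19 rose and 0 fell (median 1.28), and their summed share of reads was 0.213% and 0.234% in fl/fl against 0.527% and 0.575% in those labelled dLck-Cre. Among 18 markers of monocytes, macrophages and dendritic cells, 14 rose and 0 fell (median 1.15; 0.258% and 0.159% against 0.510% and 0.427% of reads). Of 21 T cell identity genes 8 fell and 0 rose (median -0.55; 0.851% and 0.837% against 0.651% and 0.586%). After scaling to those T cell genes the all-gene median was 0.54 in place of -0.02, the 10 genes had a median of 1.88, and all 10 then passed as higher, where 35.9% of all genes did. The myeloid share was highest in replicate 1 labelled dLck-Cre and the share of the 10 genes in replicate 2. Of 12 fibroblast, smooth muscle and endothelial markers 0 passed (limma; 5 at an unadjusted p under 0.05), at a median of 1.19. Of these differences 11 were above 0 and 1 below, that of Pecam1 (-0.60; limma, adjusted p = 0.0544). Their summed share of reads overlapped between groups, at 0.0211% and 0.00951% in fl/fl against 0.0181% and 0.0234% in those labelled dLck-Cre. Of 7 B and plasma cell markers Cd79a and Igkc were among the genes analysed, at 5.20 to 21.3 and 14.6 to 129 normalized counts, and Igkc rose by 2.46.

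E-cadherin is also a ligand for lymphocyte receptors, and genes of these receptors moved in both directions. Itgae encodes the CD103 chain of the integrin that binds E-cadherin and was listed at 1986 and 3310 normalized counts in fl/fl replicates 1 and 2 and at 1006 and 758 in those labelled dLck-Cre. It fell by 1.55 on the log2 scale (SE 0.25; limma, adjusted p = 0.0232), where 1.22% of all genes passed as lower. Its partner chain gene Itgb7 was listed at 22567 and 18419 against 14948 and 12488 and did not pass (-0.58; adjusted p = 0.0838). Klrg1, an inhibitory receptor gene of lymphocytes, was listed at 356 and 252 against 1539 and 1035 and rose by 2.07 ± 0.24 (adjusted p = 0.0195). For neither Itgae nor Klrg1 did the groups overlap. The 21 T cell identity genes had a median of -0.55 between the same groups, and the receptor genes were not tested against it.

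Among 8611 other genes with a mean of at least 200 normalized counts, the 10 whose log2 profile over the 4 libraries lay nearest to the mean profile of the members were Ccser1, Dsp, Myh14, F11r, Itgb4, Gng12, Frk, Smagp, Vil1 and Parm1. Their Euclidean distances, on centred log2 values, ran from 0.0570 to 0.0999. The distances of the members themselves from their own mean profile ran from 0.0615 (Krt8) to 0.740 (Krt20), with Cldn4 at 0.715. Dsp and F11r are the desmosomal and tight junction genes named above, Itgb4 encodes the integrin chain of hemidesmosomes, and Vil1 encodes villin. With 4 libraries this likeness is a description of the order and spacing of those libraries, and 18.2% of all genes shared the order in which replicate 2 labelled dLck-Cre was highest, replicate 1 next and the fl/fl libraries lowest.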

How the data were processed

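A single deposited table held RNA sequencing of 4 libraries of sorted colonic T cells. Per the labels, RNA was extracted with a column kit and a provider made the libraries. Per the submitters' processing notes the build was mm10. Which aligner, counter, strand setting and annotation were used is not given in the sources used here. In the deposited table the authors give a signal, each gene's read count over a size factor: 100% of values were whole multiples of 1 step per library (tolerance 1e-06), so reads were recovered.

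Columns were assigned by the sample descriptions. Groups were compared with limma 3.58.1 (intensity trend, R 4.3.3) on log2(value + 1), which understates changes of low genes, over 16490 genes with a mean of at least 10, with Benjamini-Hochberg adjustment at 0.05. A second fit subtracted the mean log2 value of 25 epithelial markers per library. On the recovered reads edgeR 4.0.16 and DESeq2 1.42.0 called 1133 and 1768 genes. Levels per kilobase used exonic bases of GENCODE vM21, the assembly of mm10 (16033 symbols matched once). The tests were tried on simulated data.

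Members and lists were chosen with earlier results of these data known. Named genes were the members, up to 4 per list by p-value, the E-cadherin receptor genes and the 10 nearest profiles (predicted genes and Rik names passed over). Beside these stood Csnk2a1, Cd4 and Cd3e as checks of the labels and those said to be named or picked after their values were seen. Squamous keratin and B cell genes absent from the table were not analysed here, and neither were 2 of the 26 other tight junction genes chosen. Alternatives were pseudocounts of 0.5 and 5, no filter or a mean of at least 50, TMM, quantile and T cell scaling, no trend, edgeR, DESeq2, a replicate block and leaving out each library. Figures were drawn with matplotlib 3.10.9.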

Additional observations from a re-analysis of the deposited data

How the results depend on the processing

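All differences of the 10 genes stayed positive under every alternative, from 0.67 to 2.25 on the log2 scale, and none reversed. Of the 9 called genes each lost its call under limma without trend (0 called) and without replicate 2 of the libraries labelled dLck-Cre. Leaving out 1 library at a time, with limma, edgeR or DESeq2, gave medians of 1.07 to 1.52. Without replicate 2 labelled dLck-Cre the median was 1.09 with edgeR and 1.07 with DESeq2. T cell scaling gave a median of 1.88. Among the 50 other junction and keratin genes, limma without trend called 0 (41 at an unadjusted p under 0.05), quantile normalization 12, and leaving out 1 library 0 to 36, of which DESeq2 without fl/fl replicate 1 gave 15. Relative to other epithelial markers 0 members were called under the alternatives run on all 4 libraries, where 68.9% to 83.9% of all genes passed in either direction. The exception was the replicate block, where 5.67% of all genes passed, so 0 members there says little. Leaving out 1 library moved the members' median relative difference between -0.32 (without fl/fl replicate 1) and 0.14 (without fl/fl replicate 2). TMM, quantile and T cell scaling were not run for that fit. The causes were not tested. With the replicate number as a block 10 members and 39 other junction genes were called, with a median of 1.32, and Cldn4 passed at its difference of 1.37 (limma, adjusted p = 0.00648); over all genes limma with the block called 2096 (1476 higher, 620 lower) against 1150 (948 and 202). T cell scaling called 5923 higher and 48 lower, quantile normalization 284 and 57, DESeq2 1347 and 421, and limma without trend 0 (3443 at an unadjusted p under 0.05); without replicate 2 labelled dLck-Cre limma called 17. The deviations of replicate 1 correlated between groups at 0.110 across genes, and no label says that the numbers pair libraries. The edgeR and DESeq2 fits without 1 library were chosen after seeing the data.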
